A study of Homo sapiens with 3 samples.

Results

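The translation initiation and elongation factors described here are the protein-coding genes whose symbol starts with EIF, EEF, PABPC or ETF1, or is GSPT1. The deposited table lists 55 of them among 5932 gene identifiers, with 183 of its 14338 entries (181 distinct regions, because EEF1E1 and the readthrough gene EEF1E1-BLOC1S5 hold the same 2). GENCODE release 29 has 82 protein-coding genes of these names; the other 27, among them the 5 subunits of the guanine nucleotide exchange factor eIF2B and the stress kinases EIF2AK3 and EIF2AK4, were not analysed here. The libraries come from 95D, an established human lung cancer line of wild-type genotype per the labels, with 1 library for each of 3 cultures. Cells of all 3 were seeded for 24 h. The control library is from cells then in control medium for 48 h. The glucose-deficient and glutamine-deficient libraries are from cells then kept for 48 h without glucose or without glutamine, in medium with 10% dialyzed serum. A dialyzed serum percentage is not given for the control medium, so any difference in serum cannot be told apart from the deprivation. The labels' protocols describe, for all 3, RNA captured on a biotinylated long non-coding RNA named DAMER (50 pmol of bait, 1 h with lysate at 4 °C), while the titles name RNA sequencing, so whether the control library holds captured or total RNA cannot be told from the labels.

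Values are RPM, read numbers scaled by the total of a library, and whole fragments could be recovered from them. The totals were 3781863 fragments for control culture, 18775828 for glucose deprivation and 18301611 for glutamine deprivation, and 3 fragments, the floor used for a count of 0 in folds written as at least, equal 0.793, 0.160 and 0.164 RPM. Upper ends of intervals at a count of 0 are exact and lie somewhat above that floor. ATF4 stood at 998517 and 998557 RPM in the deprived libraries against 237 RPM in the control. Only 12936 and 14450 fragments of the deprived libraries lay outside the ATF4 family, taken here as ATF4, its pseudogenes and the gene RNF157. With 1 library per group there is no replicate check and no p-value, and every interval is a 95% interval that covers counting error alone, as copies made by PCR are not separate molecules. In captured or bulk RNA, fewer cells of a type and less RNA per cell cannot be told apart. Of the markers that would place the line, 1 of 6 epithelial (KRT8, 6.48 RPM in the control), 3 of 6 mesenchymal (VIM at 77.7, SNAI2 at 6.35 and ZEB1 at 5.16 RPM) and 0 of 6 lung epithelial genes were listed. Of other cell types, 1 of 6 leukocyte genes (CSF1R, 10.3 RPM), 0 of 6 fibroblast and 0 of 5 endothelial genes were listed, and every listed marker had 0 fragments in both deprived libraries. Their part in the results below was not tested.

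Translation starts when eIF2 brings the initiator tRNA to the small ribosomal subunit, eIF3 holds the complex together, and the cap-binding factors eIF4E, eIF4G and eIF4A load it onto the mRNA. EIF1, EIF1A, EIF5 and EIF5B choose the start codon and join the large subunit. The elongation factors eEF1 and eEF2 then deliver tRNAs and move the ribosome along, and eRF1 (ETF1) and eRF3 (GSPT1) end the chain. Under stress, kinases phosphorylate eIF2, which lowers general initiation and favours mRNAs such as that of ATF4, while 4E-BPs hold back eIF4E when mTORC1 is inactive.

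In the control library, these genes held 12673.5 fragments, 3375 RPM in all, or 0.335% of the library (0.329 to 0.341%, exact Poisson). EEF2, the translocase that moves the ribosome by a codon, carried 19.6% of their RPM and EIF3A, the largest scaffold subunit of eIF3, another 11.8%. Without EEF2 the share of the library was 0.269%. The control level per kb of the longest annotated transcript had a median of 11.2 RPM over these genes, against 4.52 RPM over the listed nuclear protein-coding genes. They also had more listed regions, with a median of 3 against 2: 13 genes had 1 region and 16 had 4 or more. As the choice of the listed regions is not stated in the sources, a sum over regions can leave out reads of a gene, and where regions are shared with other genes or copies it can hold reads of those.

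**Figure D1:**
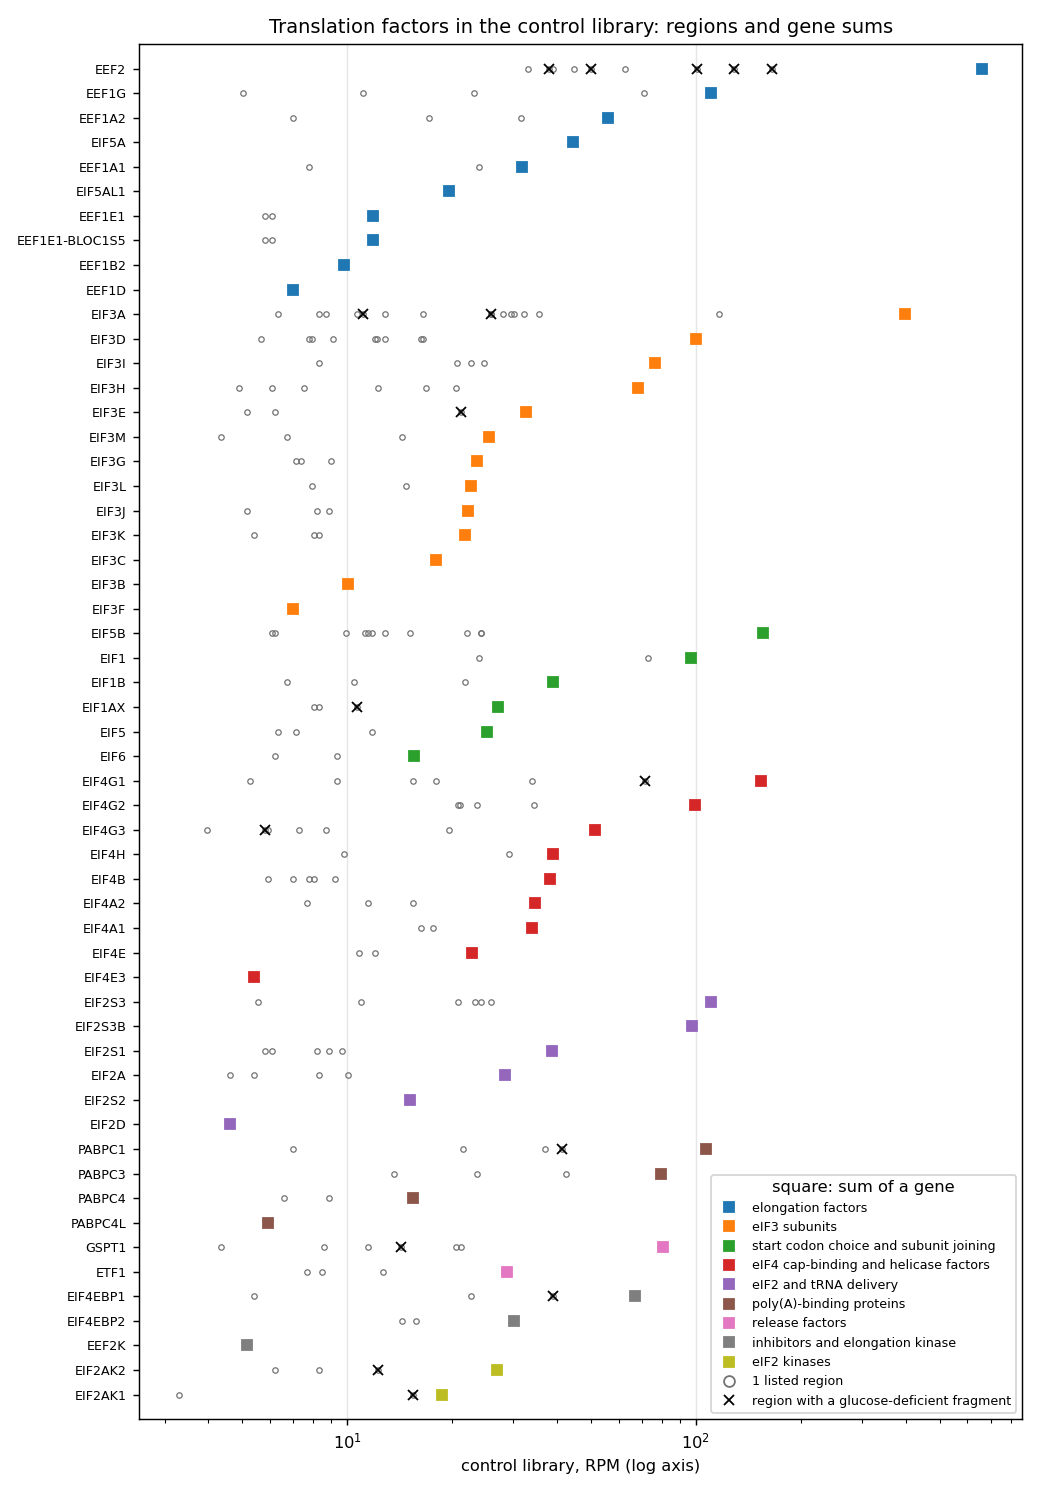
Control RPM (log axis, not corrected for length) of the 55 genes, ordered by role and level: squares are gene sums, open circles single listed regions (where a gene has 1 region, it lies under the square) and crosses regions with at least 1 fragment in the glucose-deficient library. EEF2 at 662 RPM and EIF3A at 398 RPM stand to the right of every other sum.

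EEF2 lies on chromosome 19, 3976056 to 3985469, minus strand (all gene positions are GRCh38, GENCODE release 29). Its 9 regions ranged from 32.9 to 165 RPM in the control and summed to 662 RPM, rank 2 of 4499 listed nuclear protein-coding genes by sum and rank 7 per kb (209 RPM per kb). EEF2 had 6 fragments with glucose withdrawn (0.559 RPM with the offset of 0.5 fragment per region), against 2497.5 in the control. They fell in 5 of its 9 regions: 2 in the highest region, and 1 each in those at 128, 101, 50.0 and 37.8 RPM. The glutamine-deficient library had 0 fragments in all 9 regions, and its 0.246 RPM is the offset alone. Per library total, EEF2 was 2067-fold lower (948 to 5638) in the glucose-deficient library and at least 4029-fold lower in the glutamine-deficient one.

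The other elongation factors had lower control sums, all with 0 fragments in both deprived libraries. EEF1G, the gamma subunit of the eEF1B exchange complex, stood at 110 RPM in 4 regions that the readthrough gene AP002990.1 shares (72.4 RPM per kb). EEF1A2, the tissue-restricted form of the tRNA-delivering eEF1A, stood at 55.8 RPM, EIF5A, the hypusine-bearing factor that relieves stalled ribosomes, at 44.3 RPM, and EEF1A1, the general form of eEF1A, at only 31.7 RPM in 2 regions. EEF1B2 (9.78 RPM) and EEF1D (7.01 RPM), the exchange subunits, had 1 region each.

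The low value of EEF1A1 stands beside a high value of its processed pseudogene EEF1A1P5 on chromosome 9, 133019486 to 133020874, plus strand. That 1 region held 402 RPM in the control, 12.7 times the RPM of EEF1A1 (289 against 7.14 RPM per kb of transcript), and 2 fragments in the glucose-deficient library, where EEF1A1 had 0. The pseudogene transcript matched the EEF1A1 mRNA at 99.7% of 1389 aligned bases, and 51.6% of its stretches of 150 bases, the read length, occur unchanged in that mRNA. Reads of such stretches cannot be assigned to either gene by sequence, so both values are uncertain; together with EEF1A1P6 the gene and its copies held 440 RPM. The stretch of 120 coding bases with the most differences in the pair is taken here from the GENCODE transcripts, with capitals at bases that differ, and has 1 such base.

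EEF1A1: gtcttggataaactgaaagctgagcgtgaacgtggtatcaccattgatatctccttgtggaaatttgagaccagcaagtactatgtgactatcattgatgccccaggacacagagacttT
EEF1A1P5: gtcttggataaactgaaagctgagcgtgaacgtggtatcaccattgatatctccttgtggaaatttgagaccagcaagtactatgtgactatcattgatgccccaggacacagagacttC

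EEF1A1P5 was not alone. The table lists 22 processed pseudogenes of 16 of the translation factors, 19 of them in 1 region, with 965 RPM in the control. By summed RPM 10 of the 22, and per kb of transcript 14 of the 22, were above the gene they derive from. Among them were EIF3EP1 (75.1 RPM against 32.5 for EIF3E), EIF4A1P10 (72.7 against 33.8 for EIF4A1), EIF4HP1 (53.4 against 38.9 for EIF4H), EIF4EP2 (49.8 against 22.9 for EIF4E), EIF2S2P4 (38.5 against 15.2 for EIF2S2), EEF1B2P3 (37.0 against 9.78 for EEF1B2) and EIF3FP3 (29.6 against 7.01 for EIF3F). Values per kb divide by the longest annotated transcript (11523 bases for EIF4E, 654 for EIF4EP2). They can thus understate a gene with a long transcript. EIF4BP6, EIF1P7, EIF5P1 and PABPC1P4 were above their gene per kb only. Identity to the parent ran from 87.8 to 99.7%, and 11 of the 22 shared at least 1 unchanged stretch of 150 bases with it. EIF4A1P10, on chromosome X inside PCDH11X, shared none (97.0% identity), and had 4 fragments in the glucose-deficient library, where EIF4A1 itself had 0. Its most divergent stretch, with 11 differing bases, is shown to set it against the EEF1A1 pair.

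EIF4A1: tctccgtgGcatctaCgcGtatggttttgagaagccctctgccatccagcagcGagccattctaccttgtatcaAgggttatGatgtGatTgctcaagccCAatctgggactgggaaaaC
EIF4A1P10: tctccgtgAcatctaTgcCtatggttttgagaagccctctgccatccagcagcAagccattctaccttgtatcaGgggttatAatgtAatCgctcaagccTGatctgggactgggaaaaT

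**Figure D2:**
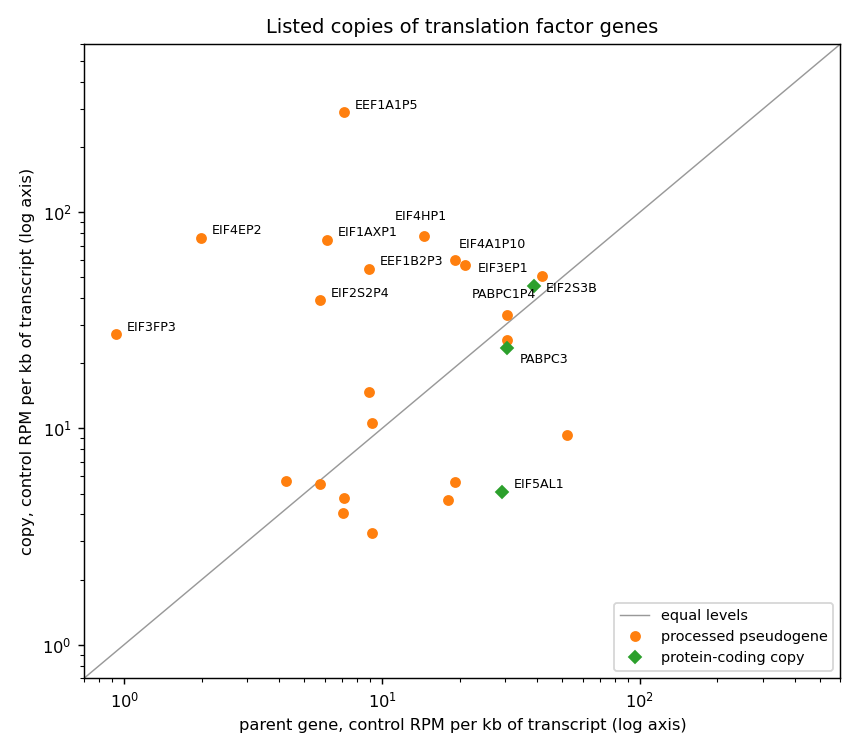
Control RPM per kb of the longest transcript of each listed copy (vertical, log axis) against that of the gene it derives from (horizontal, log axis), with a line of equal levels. EEF1A1P5 lies highest at 289 RPM per kb, and 14 of 22 pseudogenes lie above the line (10 of 22 by summed RPM). Dividing by the longest transcript can understate a gene with a long one.

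Some protein-coding members are such copies too. EIF2S3B, a retrocopy of the gamma subunit of eIF2 on chromosome 12, held 97.3 RPM in 1 region, against 111 RPM in 6 regions of EIF2S3 on chromosome X (45.4 and 38.7 RPM per kb). The transcripts match at 97.4% of 1561 bases. PABPC3, a single-exon copy of PABPC1, held 79.6 RPM against 107 RPM, and EIF5AL1, a single-exon copy of EIF5A, 19.6 RPM against 44.3 RPM. All 3 copies had 0 fragments in both deprived libraries. The most divergent coding stretches of EIF2S3 and EIF5A with their copies show 9 and 3 differing bases.

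EIF2S3: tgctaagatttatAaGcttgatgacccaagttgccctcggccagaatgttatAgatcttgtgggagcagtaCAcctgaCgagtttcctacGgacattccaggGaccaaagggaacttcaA
EIF2S3B: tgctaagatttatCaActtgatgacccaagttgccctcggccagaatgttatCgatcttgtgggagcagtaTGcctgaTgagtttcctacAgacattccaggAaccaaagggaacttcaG
EIF5A: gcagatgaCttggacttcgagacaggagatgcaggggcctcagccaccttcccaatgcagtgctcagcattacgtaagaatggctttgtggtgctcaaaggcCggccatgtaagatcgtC
EIF5AL1: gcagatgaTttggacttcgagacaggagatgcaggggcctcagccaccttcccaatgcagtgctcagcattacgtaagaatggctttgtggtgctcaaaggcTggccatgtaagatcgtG

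All 13 eIF3 subunits were listed, from EIF3F at 7.01 RPM in 1 region to EIF3A at 398 RPM in 15, the most regions of any member. EIF3A lies on chromosome 10, 119033670 to 119080823, minus strand. Its highest region held 117 RPM, 29.3% of the gene, and its lowest 6.35 RPM. The lengths of the regions are not given, so these values are not levels per base. EIF3D, the subunit that can itself bind the cap, had 9 regions between 5.69 and 16.5 RPM (sum 100 RPM), EIF3I 76.3 RPM and EIF3H 68.1 RPM. In the glucose-deficient library EIF3A had 3 fragments, 2 in a region at 25.9 RPM and 1 in a region at 11.1 RPM, and none in its highest region. EIF3E had 1 fragment and the other 11 subunits had 0. The glutamine-deficient library had 0 fragments in all 13.

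Among the cap-binding and helicase factors, EIF4G1, the scaffold that joins the cap-binding protein, the helicase and the poly(A)-binding protein, stood at 153 RPM in 6 regions, of which the highest held 71.4 RPM (46.6%). EIF4G2, a related scaffold without the part that binds eIF4E, stood at 99.6 RPM in 4 regions of 20.8 to 34.2 RPM. EIF4G3 stood at 51.3 RPM and EIF4H, a helper of the helicase, at 38.9 RPM. EIF4E, the cap-binding protein, stood at 22.9 RPM (1.98 RPM per kb of a long transcript) and its relative EIF4E3 at 5.42 RPM. All 4 glucose-deficient fragments of EIF4G1 (577 in the control) fell in its highest region. With EIF4G3 at 1 fragment, these were the only members of the role with any.

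For start codon choice and subunit joining, EIF5B, the GTPase that joins the ribosomal subunits, stood at 155 RPM in 11 regions of 6.08 to 24.2 RPM (2 of them with the same value), EIF1 at 97.0 RPM, EIF1B at 39.0 RPM and EIF1AX at 27.1 RPM. EIF1AX had 1 glucose-deficient fragment, in a region that a small RNA gene (RF00494) shares, and EIF5B had 0 against 581.5 in the control. For eIF2 and tRNA delivery, EIF2S3 (111 RPM), EIF2S1, whose serine the stress kinases phosphorylate (38.6 RPM), EIF2A (28.4 RPM, all 4 regions shared with SERP1) and EIF2D, the lowest member at 4.63 RPM, had 0 fragments in both deprived libraries. The eIF2 kinases listed were EIF2AK2, the double-stranded RNA sensor PKR, at 26.8 RPM, and EIF2AK1, the heme-regulated kinase, at 18.8 RPM, with 1 glucose-deficient fragment each.

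The cytoplasmic poly(A)-binding protein PABPC1 stood at 107 RPM in 4 regions and had 1 glucose-deficient fragment, in its highest region. PABPC4 stood at 15.5 RPM and PABPC4L at 5.95 RPM, both with 0. Of the release factors, GSPT1 (80.4 RPM, 5 of 6 regions shared with the antisense gene AC007216.4) had 2 glucose-deficient fragments in 1 shared region, and ETF1 (28.8 RPM) had 0. The inhibitor EIF4EBP1 stood at 67.0 RPM (65.7 RPM per kb, rank 3 after EEF2 and EEF1G) with 1 glucose-deficient fragment, EIF4EBP2 at 30.1 RPM, and EEF2K, the kinase that inactivates eEF2, at 5.16 RPM, both with 0. In all, 14 members shared regions with genes that are no members, and without every shared region, those of EEF1E1 included, the control share was 0.292%.

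The comparison of each deprived library with the control asks which RNAs differ between the libraries. As the control library may hold captured or total RNA, a difference of culture cannot be told apart from one of capture. On the RPM scale all 55 genes were at least 2-fold lower (log2 of RPM + 1) in each deprived library, against a background of 99.9% of all genes tested in each comparison (5924 of 5931 and 5924 of 5928), so the count says nothing particular of translation factors. The median log2 ratios were −4.89 and −4.88, against −3.92 and −3.93 over all genes. They ran from −8.73 (EEF2) to −2.45 (EIF2D) in the glucose-deficient library and from −9.05 to −2.45 for the same genes in the glutamine-deficient one. Across all genes the ratio followed the negative log2 control level (Pearson r of 0.972 over 5931 genes and 0.974 over 5928, which share the control library), so its order restates the control level. These comparisons share the control, and ATF4 alone lowers the RPM of every other gene.

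**Figure D3:**
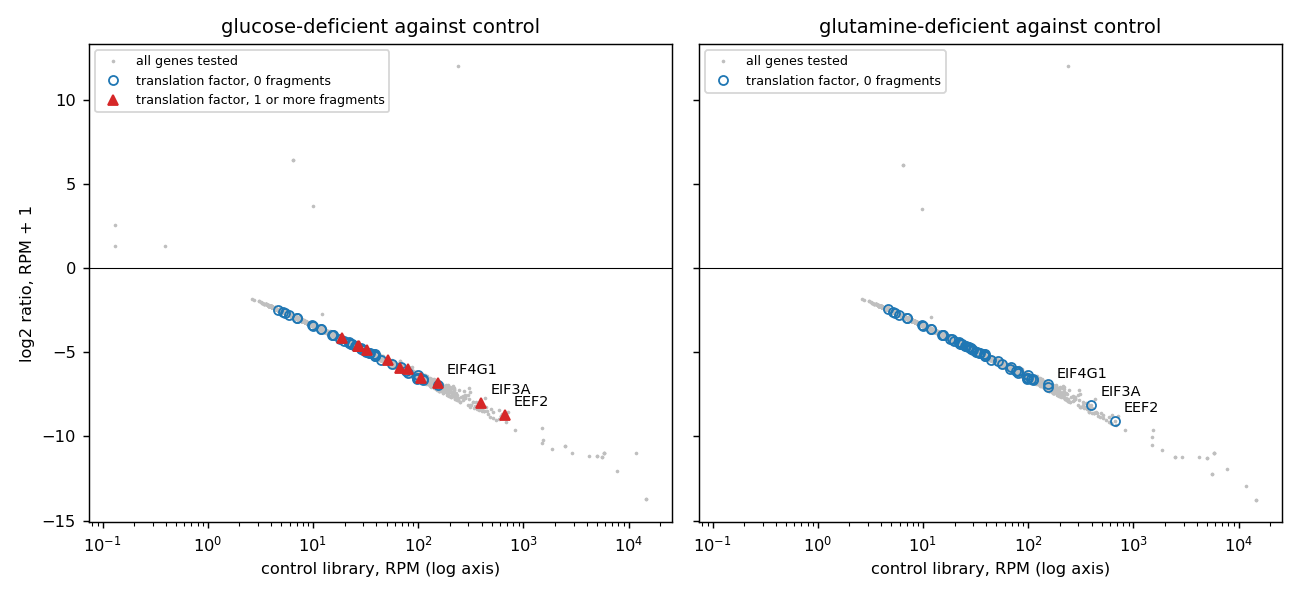
Log2 ratio of RPM + 1, deprived over control, against control RPM (log axis) for each gene tested (grey) and the translation factors (blue circles at 0 fragments, red triangles with 1 or more). The 55 genes lie on the band of all genes, with EEF2 at −8.73 and −9.05, and red triangles appear in the glucose-deficient panel only.

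What the deprived libraries still held of these genes was few fragments. The glucose-deficient library had 22 fragments in 16 of 181 regions and 11 of 55 genes, while 9.07% of all genes had a fragment (538 of 5931). Other listed regions outside mitochondria are, here and below, only those with at least 12 control fragments, the count of the smallest member region. They name a gene and lie outside the ATF4 family. Fragments kept are given per 1000 control fragments as counts not scaled by the library totals, so they are no share of RNA retained. By this measure the members' regions kept 1.74 (1.09 to 2.63), other listed regions outside mitochondria 1.10 (1.02 to 1.18). The ratio of these was 1.58, with an interval from 0.985 to 2.41 that includes 1. Without EIF4G1 it was 1.36 (0.799 to 2.16) and without EEF2 1.43 (0.814 to 2.34). Among regions with 100 or more control fragments, 8 of 28 member regions (28.6%) and 170 of 910 others (18.7%) had a glucose-deficient fragment, and the ratio of fragments kept was 1.82 (0.931 to 3.21), which also includes 1. EEF2 itself kept 2.40 (0.881 to 5.24), EIF3A 2.003 (0.413 to 5.86) and EIF4G1 6.93 (1.88 to 17.8). EIF3A and EIF4G1 were singled out of the 55 genes after the data were seen, and all 4 fragments of EIF4G1 lay in 1 region. The listed pseudogenes kept 1.65 (0.605 to 3.60), with 6 fragments.

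The glutamine-deficient library had 0 fragments in all 181 regions, where 0.776% of all genes had one (46 of 5928). The interval of that 0 reaches 0.291 per 1000 control fragments, and the other regions outside mitochondria kept 0.0438 (0.0296 to 0.0625), so no difference from them was detectable at this depth. Mitochondrial regions kept 0.921 (0.744 to 1.14) and 1.02 (0.837 to 1.25) in the 2 deprived libraries. Between these libraries, 22 fragments against 0 put the members, per library total, at least 7.15-fold above the glutamine-deficient library, with the floor of 3 fragments over all member regions (the lower end of the counting interval was 5.34). Other regions outside mitochondria were 24.4-fold higher there (17.0 to 36.5), above the members' bound, so no separate behaviour of the members was detectable. Mitochondrial regions differed by 0.877-fold (0.652 to 1.18).

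**Figure D4:**
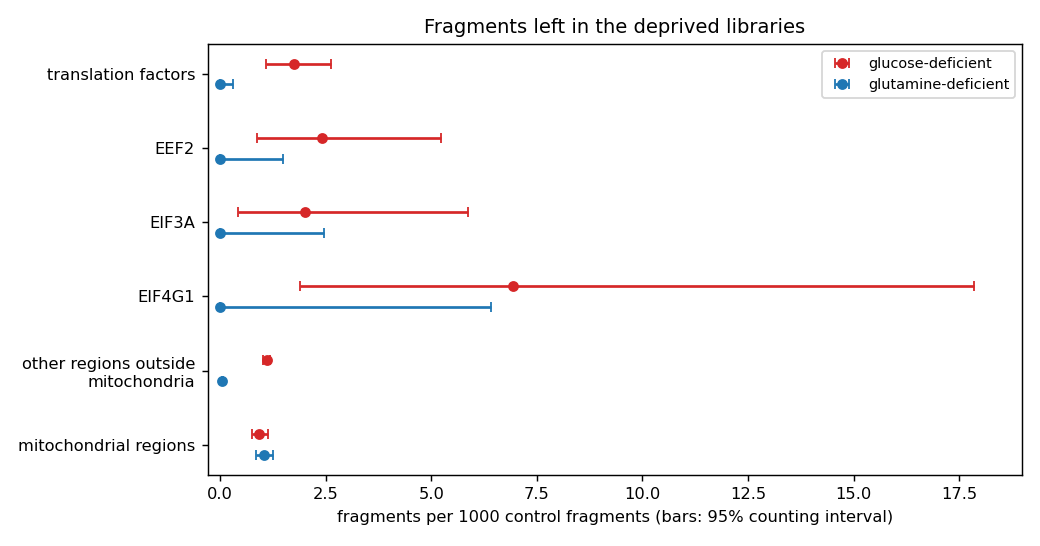
Fragments in each deprived library per 1000 control fragments (points) with 95% counting intervals (bars), for all translation factors, 3 single genes and the other listed regions. Counts are not scaled by library totals, and EIF3A and EIF4G1 were chosen after the data were seen. Other regions outside mitochondria are those with at least 12 control fragments. In the glucose-deficient library the interval of the translation factors, 1.09 to 2.63, overlaps that of other regions outside mitochondria, and in the glutamine-deficient library it spans from 0 to 0.291.

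Set against only the fragments outside the ATF4 family, the control share of these genes would give 43.4 fragments under glucose and 48.4 under glutamine deprivation. The 22 observed were 0.507 of that (0.318 to 0.768), where other listed regions outside mitochondria had 0.321 (0.298 to 0.345). The 0 observed in the glutamine-deficient library allow up to 0.0762, where those regions had 0.0115 (0.00773 to 0.0164). Every member region had at least 12 control fragments, and no member reached 1 RPM in a deprived library. Each thus passed the filter only through the control and had to be lower on the RPM scale of the whole library. Against the fragments outside the ATF4 family a member could be lower or higher, and the ratios given here are a description. By gene, EEF2 had 6 against 8.54 for the glucose-deficient library, a ratio of 0.702 (0.257 to 1.53), and 0 against 9.55 (up to 0.387) for the glutamine-deficient one. EEF2 was the only gene of the 55 whose whole interval lay beyond 2-fold lower, and only in the glutamine-deficient library (background 0.422%, 25 of 5928 genes). None of the 55 was higher by it there (background 0.118%), and none passed in either direction under glucose deprivation (background 0.202% lower and 0.185% higher). Each member other than EEF2 was expected at 5.73 fragments or fewer in both libraries, so that 0 fragments would not put a whole interval beyond 2-fold. EIF3A had 0 against 5.73 under glutamine deprivation, with an interval up to 0.645, below 1 but not beyond 2-fold. Called by value alone, with a prior of 0.5 fragment, 8 members were lower and 21 higher under glucose deprivation (background 5.97% and 62.4%), and 14 lower and 13 higher under glutamine deprivation (background 10.1% and 55.5%). As 44 and 55 of the genes had 0 fragments, those calls rest mostly on the prior.

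Other genes of the pathway behaved as the table did. Of 20 core translation genes outside the name rule 12 were listed and all 12 lower in both comparisons on the RPM scale (median log2 −3.73 in each), led by the helicase DDX3X at 111 RPM in the control, the ribosome rescue factor HBS1L at 52.1 RPM and the recycling factor ABCE1 at 48.1 RPM. Of 17 genes of mTORC1 and cap-binding control 10 were listed and lower (median −4.43 in each), among them LARP1, which binds mRNAs with a 5′ terminal oligopyrimidine tract (142 RPM, 1 glucose-deficient fragment), GIGYF2 (82.4 RPM) and RPS6 (45.2 RPM). Of 10 eIF2 phosphatase and stress partners 7 were listed and lower (−4.11 in each), with PPP1R15A, the subunit that leads the phosphatase to eIF2, at 296 RPM in the control and 0 fragments in both deprived libraries. PPP1R15B stood at 55.7 RPM and DDIT3 at 17.3 RPM. Of 12 poly(A) tail partners 5 were listed and lower (−5.18 and −5.17), with CNOT1, the scaffold of the deadenylase complex, at 220 RPM and 1 glutamine-deficient fragment, LARP4B at 46.7 RPM and PAIP2 at 39.0 RPM. Of 11 mitochondrial translation factors 3 were listed and lower (−3.63 in each): TUFM at 25.9 RPM, MTIF2 at 12.0 RPM and MTIF3 at 8.46 RPM. The background of 99.9% holds for each of these counts.

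mRNAs of the translation machinery often start with a C followed by pyrimidines, the tract through which mTORC1 and LARP1 control their translation. RefSeq start sites (GRCh38.p14) were given for 42 of the 55 genes. The genes without one, among them EIF3A, PABPC1, EIF3H and EIF4EBP1, are not in these counts. A C at the annotated start followed by at least 4 more C or T was found in 13 of the 42 (31.0%), against 5.14% of all symbols and 6.36% of protein-coding ones with a start site. The 13 had a median of 31.7 RPM in the control (4.63 to 662) and the other 29 a median of 28.8 RPM (5.16 to 155), so the ranges overlapped. The 30 bases from 10 before the annotated start are shown for the 7 members with the highest control RPM among the 42, with the pyrimidine run at the start in capitals where it was at least 5 long. EEF2, EIF2S3 and EIF3D have one, and EIF5B, EIF4G1, EEF1G and EIF4G2 do not. The search covered the exact annotated base only. In EEF1G the bases CTTT follow that base, and in EIF4G2 the bases CTTCCCT do. A gene without a run by this rule can therefore still have a pyrimidine tract at a start nearby.

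EEF2, chr19:3985444-3985473, minus strand: cgtcagcgttCTCTTCCgccgtcgtcgccg
EIF2S3, chrX:24054946-24054975, plus strand: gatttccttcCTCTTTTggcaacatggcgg
EIF3D, chr22:36529147-36529176, minus strand: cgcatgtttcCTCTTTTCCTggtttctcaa
EIF5B, chr2:99337379-99337408, plus strand: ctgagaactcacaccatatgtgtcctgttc
EIF4G1, chr3:184314596-184314625, plus strand: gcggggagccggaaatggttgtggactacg
EEF1G, chr11:62573872-62573901, minus strand: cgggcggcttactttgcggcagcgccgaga
EIF4G2, chr11:10807977-10808006, minus strand: tgtcggaagcacttccctaacttgcgcctg

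The amino acid response element to which ATF4 binds was searched as TGATGNAA on both strands, over 300 bases (250 before to 50 after the start). It was present for 1 of the 42 genes (EIF4E3, 2.38%) and for 4.46% of all symbols. Members without a start site, EIF4EBP1 and EIF3A among them, were not searched. A match is a match of letters only, and no match says only that these letters are not in this window.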

How the data were processed

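The authors deposited RPM values per region, per the file headers, for 3 libraries of 1 culture each, in a table of 2 blocks (control with each deprived library) and a file per library. HISAT2 2.0.5 and the build hg38 are named in the submitters' processing notes. The calling and choice of regions, the annotation and the use of strand are not given in the sources. The label of the glutamine-deficient library names the glucose column, while 100% of its own file's values equal the glutamine column, which was used.

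RPM rose in steps of 0.264, 0.0533 and 0.0546 per fragment with an offset of 0.5 fragment per region; fragments were recovered to the nearest 0.5 (whole for 63.3% of control, 99.97% and 99.98% of deprived values, all within 0.00672 fragment of a step). Regions were summed per gene, and regions listed under several genes were counted once in totals. Genes reaching 1 RPM in either library were called at 2-fold on log2(RPM + 1), which understates low genes. Entries naming no gene (691 of 14338) were left out. Ratio intervals are exact conditional binomial; a floor of 3 fragments per library and gene gave the bounds written as at least. The design assumed no test, and none was run. Steps were tested on simulated data, in which most genes kept their control share of the library. The low member counts of the deprived libraries were not simulated. TMM (edgeR 4.0.16) and median-of-ratios scaling (DESeq2 1.42.0) of recovered fragments, other pseudocounts and filters, and sets without 1 gene or without shared regions were alternatives. Transcripts were aligned with blastn 2.17.0; Python 3.11.15 and R 4.3.3 were used.

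The members and gene lists were chosen with earlier results of these data known. Members named are the 10 highest in the control, all with a deprived fragment, the 5 with most regions, up to 4 per role, the 2 lowest, and up to 3 per list; other members and the copies were named after their values were seen.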

Additional observations from a re-analysis of the deposited data

How the results depend on the processing

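The counts and shares rest on scaling by all reads and on the pseudocount. All 55 genes stayed lower in both comparisons with a pseudocount of 0.1 RPM, no filter, the offset taken off or 1 region per gene, and 54 of 55 with a pseudocount of 5 RPM. A filter of 5 RPM left 54 genes to test, and all 54 were lower. The median log2 ratios (−4.89 glucose-deficient, −4.88 glutamine-deficient) were −7.33 and −7.33 with 0.1 RPM, −2.80 and −2.80 with 5 RPM, −4.95 and −4.95 with the offset taken off, −4.004 and −4.003 with the highest region per gene, and −4.92 for the glutamine-deficient library with a filter of 5 RPM. On recovered fragments with a prior of 0.5 fragment, the direction depended on the scaling. With the ATF4 family removed from library totals 8 and 14 genes were lower and 21 and 13 higher, and the medians turned positive (0.73 and 0.20). With TMM 14 and 16 were lower and 11 and 10 higher, and the medians stayed negative but small (−0.16 and −0.051). Of all genes 15.6% and 12.6% were lower and 40.7% and 49.5% higher by TMM. With median-of-ratios scaling, which rests on 23 genes, 1 and 4 were lower and 31 and 32 higher, and the medians turned positive (1.27 and 1.20). Of all genes 2.78% and 3.48% were lower and 74.8% and 76.3% higher by that scaling. These values rest mostly on the prior. By whole counting intervals, an alternative chosen after seeing the data, 0 and 1 genes were lower. With at least 2 fragments, 4 genes remained in the glucose-deficient library in place of 11. The control share of 0.335% was 0.269% without EEF2 and 0.292% without shared regions, and, chosen after seeing the data, 0.320% without EIF4G1 and 0.296% without EIF3A. No paired analysis was possible because each group has 1 library.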
